A study of Mus musculus with 4 samples.

Results

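Txnip and 9 further genes of nutrient and growth control, most of them restraints on growth or nutrient use, were followed in RAW264.7 cells, a mouse macrophage line that had been made permeable with digitonin. The 10 genes are Txnip, Arrdc4, Arrdc3, Pik3ip1, Irs2, Foxo1, Foxo3, Ccng2, Klf2 and Tsc22d3, of 17655 genes in the deposited table, and each was found there once by its symbol. Their Entrez Gene identifiers in the table are, in that order, 56338, 66412, 105171, 216505, 384783, 56458, 56484, 12452, 16598 and 14605. They were chosen by name with their FPKM and ratios in these same libraries already known, so every value of theirs is a description and none is a test. RNA-seq was done on 4 libraries, 1 per condition. The medium held 25 mM glucose and 10% serum, and all cells were permeabilized and then incubated for 24 h. The water library got ultrapure water, and the mock library got a mock extract, water labelled as a mock extraction of free oligosaccharides (fOS). The ManGn library got 10 µM of the synthetic disaccharide Manβ1-4GlcNAc in water, and the fOS library got 10 µM of the free oligosaccharide pool extracted from Trex1-/- cells, which lack the DNase TREX1. Each ligand has its own control, water for ManGn and the mock extract for fOS. Both ligands are also set here against the other control, so comparisons with the same control share a library. All 4 libraries come from this 1 cell line at passage 2 to 10, and no library is a replicate of another. A difference between 2 libraries has no replicate check and no p-value, and a difference between conditions cannot be told apart from a difference between cultures. In such bulk RNA, fewer expressing cells and less RNA per cell cannot be told apart. The libraries were made to look at the immune response to the disaccharide and to the pool.

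These genes belong to connected circuits of nutrient and growth control. TXNIP, ARRDC4 and ARRDC3 are alpha-arrestins, adaptors that bring ubiquitin ligases to membrane proteins. TXNIP also binds thioredoxin and lowers glucose uptake, and the transcription of Txnip and Arrdc4 is driven by the glucose-sensing factors MondoA (gene Mlxip) and ChREBP (gene Mlxipl) with their partner MLX. In the insulin branch, IRS2 is an adaptor that carries the receptor signal to PI3 kinase, and PIK3IP1 is a membrane protein that inhibits PI3 kinase. The kinase AKT acts downstream of PI3 kinase and keeps the transcription factors FOXO1 and FOXO3 out of the nucleus. Genes switched on by nuclear FOXO factors include Ccng2, which encodes the growth-restraining cyclin G2, and Klf2, which encodes a transcription factor that holds T cells and macrophages quiet. Tsc22d3 encodes GILZ, an anti-inflammatory protein induced by glucocorticoids and by FOXO3.

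The promoters of Txnip and Arrdc4 are shown because these alpha-arrestin genes had similar patterns over the 4 libraries and share a known regulator. Sequences are those of RefSeq on build GRCm38.p6, read 5′ to 3′ on the strand of the gene and ending at the base before the transcription start. Capitals mark matches to the 4 motifs searched, on either strand. The Txnip stretch is chr3:96557807-96557956 on the + strand, and the Arrdc4 stretch is chr7:68749239-68749458 on the - strand.
Txnip: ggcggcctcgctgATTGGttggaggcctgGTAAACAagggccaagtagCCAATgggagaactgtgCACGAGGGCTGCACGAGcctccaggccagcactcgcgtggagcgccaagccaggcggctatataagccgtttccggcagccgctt
Arrdc4: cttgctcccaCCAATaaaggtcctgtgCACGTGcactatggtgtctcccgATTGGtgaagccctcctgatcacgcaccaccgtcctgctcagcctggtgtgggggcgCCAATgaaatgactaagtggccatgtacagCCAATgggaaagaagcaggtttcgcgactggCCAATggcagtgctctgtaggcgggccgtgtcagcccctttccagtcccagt

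The motifs were CACGTG (the E-box), the spaced pair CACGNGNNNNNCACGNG (the layout of a carbohydrate response element), TGTTTAC (a forkhead motif bound by FOXO factors) and CCAAT (bound by NF-Y). A CACGTG may lie inside the spaced pair. They were sought in windows from 250 bases before to 50 bases after the start, of which the table holds 32851 from 27025 genes, the 10 genes included. The spaced pair was found in 16 of the windows (0.0487%), and 1 of these is that of Txnip, which holds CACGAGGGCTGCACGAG with its first base 85 bases before the start. Txnip was also the only one of the 10 genes with the forkhead motif, which reads GTAAACA on the gene's strand from 121 bases before the start and occurs in 3.65% of windows. Arrdc4 and Irs2 have the E-box, at 193 and 44 bases before the start, against 7.15% of windows. The CCAAT box occurs in 37.4% of windows and in those of Txnip, Arrdc4, Arrdc3, Irs2 and Foxo1, with 6 matches in Arrdc4, 5 of them in the stretch printed. The windows of Pik3ip1, Foxo3, Ccng2, Klf2 and Tsc22d3 held no match to these letters. A match is a property of the sequence and says nothing of what was bound in these cells.

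**Figure D1:**
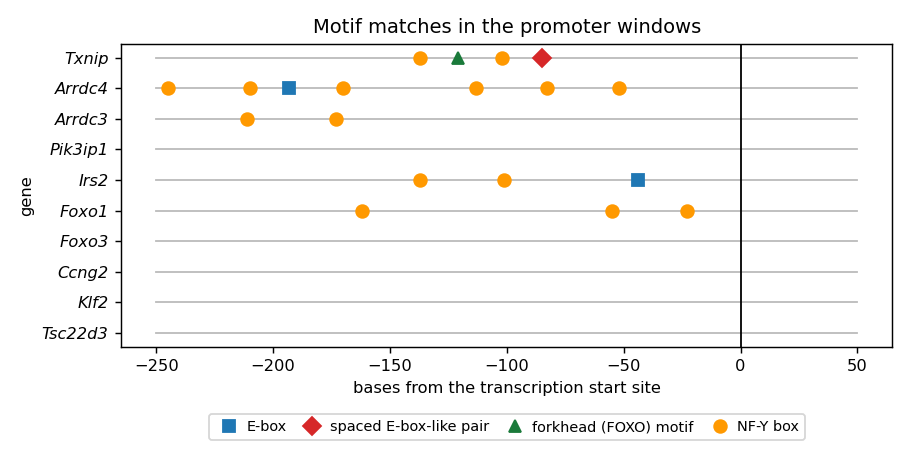
Motif matches along the promoter windows of the 10 genes, with the distance of each match's first base from the transcription start in bases on the horizontal axis and 1 line per gene. Txnip carries the spaced pair 85 bases and the forkhead motif 121 bases before the start, and Arrdc4 has 6 CCAAT (NF-Y) boxes; the 2 points of Arrdc3 are 1 box seen from 2 annotated starts.

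Levels are given as FPKM, fragments per kilobase of transcript scaled to the depth of the library, a unit in which genes of different length can be set side by side. A gene was compared if its FPKM reached 1 in at least 1 library, which held for 11183 genes and for 9 of the 10. It was called lower or higher when the ratio of FPKM plus 0.1 was at least 2-fold and 1 of the libraries compared had FPKM of at least 1. Log2 ratios are on this scale, which understates the differences of low genes. Of all genes compared, 7.37% were lower and 9.44% higher with ManGn than with water, 3.47% and 3.51% for ManGn over the mock extract, 6.41% and 2.67% for fOS over the mock extract, and 6.69% and 9.24% for the mock extract over water. For fOS over water, 1597 genes (14.3%) were lower and 1581 higher. These values are the background of each count of genes in a list. Between 10405 and 10663 genes reached FPKM 1 in each library. The depth, estimated from whole-read steps in low FPKM values, was 9830000 to 10523000 reads, at which 53.5% to 56.1% of the values used came within 0.1 of a whole read count, against 22.9% to 23.9% with shuffled transcript lengths. Folds with an interval come from these estimated reads, and the exact 95% interval covers counting error only. All 7 macrophage markers measured were at FPKM 1 or more in every library, and their sum ranged from 8205 to 9110. Of these, Cd14, the endotoxin co-receptor, had FPKM 64.9 with water, 254 with the mock extract, 367 with ManGn and 385 with fOS, and the integrin gene Itgam at 104, 136, 49.8 and 44.4, and the part of such differences between the cultures in the results was not tested. The 6 fibroblast markers summed to at most 0.16, and of the remaining marker lists only the T cell genes Lck and Cd3d reached FPKM 1, at 1.33 and 1.08 at most.

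Among the alpha-arrestins, Txnip and Arrdc4 were lower with each ligand than with each control, and Arrdc3 differed less. Txnip was among the most abundant transcripts of the cells, at FPKM 1085 with water, 419 with the mock extract, 117 with ManGn and 92 with fOS. By FPKM it ranked 93 of all genes with water, 171 with the mock extract, 616 with ManGn and 879 with fOS. The libraries with a ligand were both low and the water library was the highest, with the mock library between them. ManGn was 9.24-fold lower than water (interval 8.91 to 9.58) and 3.57-fold lower than the mock extract (3.43 to 3.71). The pool was 4.55-fold lower than its mock extract (4.36 to 4.75) and 11.8-fold lower than water (11.3 to 12.3). Between the controls, which got no ligand, the mock library was 2.59-fold lower than the water library (2.54 to 2.65). The ligands themselves differed little for Txnip, with a log2 ratio of 0.35 for ManGn over fOS.

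Arrdc4, a relative of Txnip that also lowers glucose uptake, had FPKM 27.7 with water, 9.84 with the mock extract, 4.82 with ManGn and 3.11 with fOS. The order of the libraries was that of Txnip. The log2 ratio was -2.50 for ManGn over water, -1.63 for fOS over the mock extract and -1.49 between the controls. ManGn over the mock extract came to -1.01, just past 2-fold, and each of 3 other scalings, like a pseudocount of 1, took it under the threshold. That ratio rests on about 54 reads against 110, counted on the shorter of the gene's transcripts, and the fold of 2.07 has an interval of 1.48 to 2.92. Arrdc3, which directs adrenergic receptors to degradation, was at FPKM 9.35, 6.1, 5.55 and 3.54 with water, the mock extract, ManGn and fOS. Its values again lay in this order but in a narrow range, and it was called lower for fOS over water only, with a log2 ratio of -1.38. Of 6 alpha-arrestin genes, 5 were compared, since Arrdc5 was listed at 0 in every library. Arrdc2, whose protein is a little-studied adaptor of the same family, stood at FPKM 12.7 with water, 4.22 with the mock extract, 3.59 with ManGn and 1.43 with fOS. Arrdc1, which works in the release of vesicles at the plasma membrane, was at 15.9, 16.9, 12.7 and 13.2, with log2 ratios between -0.41 and 0.09 in the comparisons with or between controls. The median log2 ratio of the 5 compared was -1.79 with ManGn against water and -1.50 with fOS against the mock extract. It was -1.37 for the mock extract over water and -0.41 for ManGn over the mock extract. Over all genes compared these medians were 0.05, -0.02, 0.07 and -0.02. Txnip, Arrdc4 and Arrdc3 are among the 5 and were chosen with their values known, so nothing is read from this contrast. Of the other genes, Arrdc1 had -0.32 and Arrdc2 -1.79 with ManGn against water. With fOS against the mock extract, Arrdc1 had -0.35 and Arrdc2 -1.50. Of the ubiquitin ligases that alpha-arrestins recruit, Itch, Wwp1 and Wwp2 were compared and none was called in any of the 6 comparisons. Shares of all genes called were 7.37% lower and 9.44% higher with ManGn over water, and 6.41% and 2.67% with fOS over the mock extract. At such shares, no call among 3 genes says little of the ligases. Their median log2 ratio was -0.02 with ManGn over water and -0.15 with fOS over the mock extract.

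**Figure D2:**
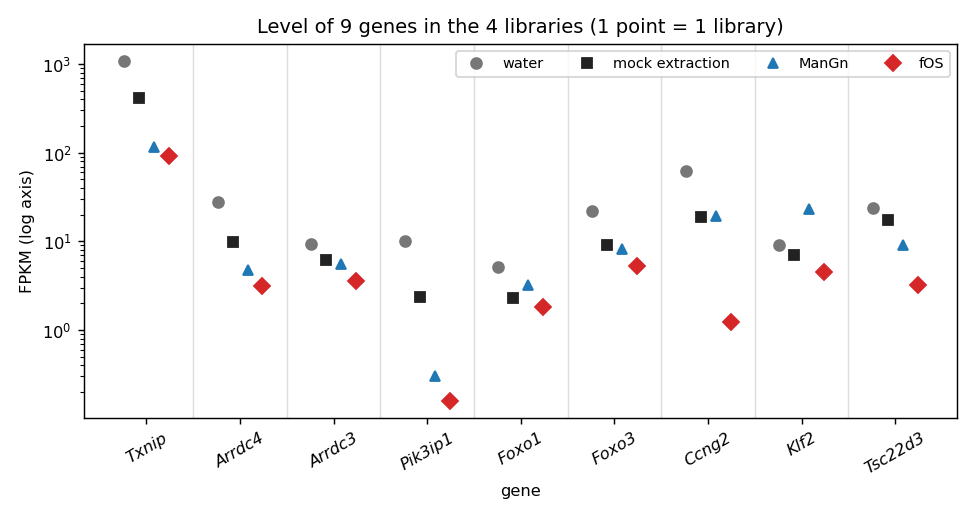
FPKM of the 9 genes that were compared, on a log axis, with 1 point for each of the 4 libraries. The water point is the highest for each gene but Klf2, whose ManGn point stands at 23.3, and the fOS point is the lowest for each of the 9.

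Thioredoxin genes, thioredoxin reductase genes, glucose carrier genes and Nlrp3, listed for their link to TXNIP, did not share 1 direction. A place on this list does not mean that the product binds TXNIP. Of 9 compared, 1 was lower and 1 higher with ManGn than with water (median log2 ratio 0.68), against 7.37% and 9.44% of all genes. With fOS over the mock extract 2 were lower and 1 higher (median -0.11), against 6.41% and 2.67%. ManGn over the mock extract gave 0 lower and 1 higher (median 0.06), against 3.47% and 3.51%. The mock library over the water library gave 0 lower and 2 higher (median 0.24), against 6.69% and 9.24%. With fOS over water 2 were lower and 2 higher (median 0.32), against 14.3% of all genes lower and 1581 of the 11183 higher. Txn1, which encodes the thioredoxin that TXNIP binds, had an FPKM of 180 with water, 213 with the mock extract, 327 with ManGn and 360 with fOS. Both libraries with a ligand were the higher ones, by less than 2-fold over their own controls. Txnrd1, which recharges thioredoxin, had a log2 ratio of 0.95 with ManGn over water and 1.41 with fOS over the mock extract. The glucose carrier gene Slc2a1, whose product TXNIP removes from the cell surface, had FPKM 164 in the ManGn library and 39.5 in the fOS library, against 102 with water and 63.5 with the mock extract. Its ManGn value was the highest of the 4 and its fOS value the lowest. Slc2a8, another glucose carrier, had log2 ratios of -1.23 with ManGn over water and -1.58 with fOS over the mock extract. Nlrp3, the inflammasome sensor that TXNIP can bind, stood at FPKM 6.13 with water and at 15.5 to 17.5 in the other libraries. Of the glucose-sensing factors, Mlxip was at FPKM 26.5, 20.2, 16.3 and 14 with water, the mock extract, ManGn and fOS, and Mlx at 21, 22.2, 26.7 and 28.3. Mlxipl was listed at 0 in each library. Of 5 glucose-sensing genes and targets compared, 2 were lower with ManGn than with water (median log2 ratio -0.69), against 7.37% of all genes. With fOS, 1 was lower than with the mock extract (median -0.52), against 6.41%, and 3 lower than with water (median -1.45), against 14.3%. Between the controls 2 were lower in the mock library (median -0.91), against 6.69%. With ManGn over the mock extract 0 were called, against 3.47% of all genes lower and 3.51% higher, and the median had the opposite sign at 0.26. Neither Mlxip nor Mlx was called in a comparison of a ligand with a control or between the controls. Pfkfb3, a stimulator of glycolysis that responds to glucose and hypoxia, had FPKM 68.7 with water and 5.33 with fOS, and its log2 ratio was -2.51 between the controls alone. Klf10, a repressor that glucose induces, was at 36.2 with water and between 13.2 and 17 elsewhere. Hk2, the hexokinase that starts glycolysis, was at 44.8 with water and 44.5 with ManGn, and at 23.7 with the mock extract and 13.8 with fOS.

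The genes whose levels ran most nearly in parallel with Txnip were Gm15441, Rdm1, Tmem176a, Ypel2 and Macrod1. Likeness was measured as the Euclidean distance between log2 values centred over the 4 libraries, among the 8982 other genes with FPKM of at least 5 in some library, and with 4 values per gene it is a description. Gm15441 was the nearest, at a distance of 0.139, with FPKM 276 with water, 99.5 with the mock extract, 28.7 with ManGn and 24.8 with fOS. In GENCODE M21 it is an antisense gene that shares 606 of the 3123 exon bases of Txnip on the opposite strand. Its FPKM was 25.5% of that of Txnip with water, 23.8% with the mock extract, 24.5% with ManGn and 27.0% with fOS. The sources used here do not say whether counting used strand, so reads of Txnip and Gm15441 cannot be told apart where they overlap. The next was Rdm1, a DNA repair protein, at a distance of 0.205, and then Tmem176a, a membrane protein of myeloid cells, at 0.331. Ypel2, at 0.337, encodes a zinc-binding protein of the Yippee family, and Macrod1, at 0.357, an enzyme that removes ADP-ribose. Of the other 9 genes chosen, Arrdc4 came nearest to Txnip, at place 11 with a distance of 0.662. Tsc22d3 was at place 62, Pik3ip1 at 74 and Foxo3 at 156, whereas Ccng2 was at 1920 and Klf2 at 7152.

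**Figure D3:**
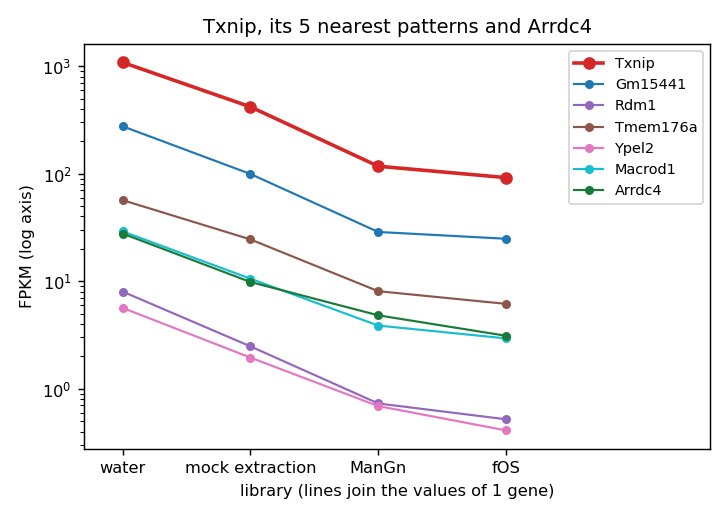
FPKM on a log axis of Txnip, the 5 genes with the nearest pattern and Arrdc4 in the 4 libraries, with lines that join the values of 1 gene. Each line descends from water through the mock extract to ManGn and fOS, and Gm15441 stays near 25% of Txnip.

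In the PI3 kinase branch, Pik3ip1 was far lower with each ligand than with each control. Few genes of the kinase and of AKT passed 2-fold with ManGn over a control, with fOS over the mock extract or between the controls. Pik3ip1 had FPKM 10 with water, 2.36 with the mock extract, 0.3 with ManGn and 0.16 with fOS. The libraries with a ligand were both under FPKM 1, on about 8 reads with ManGn and 4 with fOS, and both controls were above it, on 254 and 60. ManGn was 32.3-fold lower than water (interval 16.1 to 75.6) and 7.61-fold lower than the mock extract (3.62 to 18.4). The pool was 16-fold lower than the mock extract (5.93 to 60.6) and 68-fold lower than water (26.2 to 251), and the mock extract was 4.25-fold lower than water (3.20 to 5.73). A stricter filter of FPKM 5 in 1 of the libraries compared removes both calls against the mock extract. An opposite-strand gene shares 2.13% of the exon bases of Pik3ip1. With so few reads the order of the ligands was not resolved, as ManGn over fOS was 2.1-fold with an interval of 0.564 to 9.55. Irs2 was listed at FPKM 0.02 with water, about 1.24 reads, and at 0 in the other libraries. A count of 0 allows an FPKM of up to 0.048 there, so a difference of Irs2 was not detectable at this depth. Irs1 was listed at 0 in each library, and the insulin receptor gene Insr stood at FPKM 6.45 with water, 4.42 with the mock extract, 4.54 with ManGn and 2.39 with fOS. Of 7 insulin and IGF genes compared, 0 were called with ManGn over water (median -0.16), against 7.37% of all genes lower and 9.44% higher. With fOS over the mock extract 1 was higher (median 0.27), against 2.67% of all genes. With fOS over water 1 was lower and 1 higher (median 0.31), against 14.3% of all genes lower and 1581 of the 11183 higher. None was called with ManGn over the mock extract (median -0.07) or between the controls (median 0.04). Of all genes, 3.47% were lower and 3.51% higher in the former, and 6.69% and 9.24% in the latter. The gene higher with fOS than with the mock extract was the growth factor gene Igf1, at FPKM 86.8 with fOS against 40 to 44.9 elsewhere. Igf2r, a receptor that clears IGF2, was at 29.5 with water and 51.6 to 63.1 elsewhere, and Ptpn1, a phosphatase that turns off the insulin receptor, was between 13.1 and 22.6. Of 23 genes of PI3 kinase and AKT that were compared, 0 were lower and 2 higher with ManGn than with water, namely the catalytic subunit gene Pik3cb and the AKT-related kinase gene Sgk1, with log2 ratios of 1.31 and 1.33. With fOS over the mock extract 0 of the 23 were called either way, and the median log2 ratio was 0.03 in both comparisons. Of all genes, 7.37% were lower and 9.44% higher with ManGn than with water, and 6.41% and 2.67% with fOS than with the mock extract. Between the controls 1 was lower and 1 higher in the mock library (median 0.07), against 6.69% and 9.24%. ManGn over the mock extract gave 0 of either (median -0.05), against 3.47% and 3.51%. With fOS over water 2 were lower and 3 higher, Akt1 and Pik3r5 among the latter (median -0.00). Of all genes, 14.3% were lower there, and 1581 of the 11183 were higher. Pik3r3, a regulatory subunit gene, had an FPKM of 1.73 with water and between 0.57 and 0.82 elsewhere, and Pik3r5, the regulatory subunit gene of the kinase that G protein-coupled receptors use, was at 27.6, 51.6, 46.2 and 70.3 in the order water, mock extract, ManGn, fOS. Akt1 had FPKM 59.3 with water, 102 with the mock extract, 98 with ManGn and 140 with fOS, with a log2 ratio of 1.24 for fOS over water. The medians of 0.03 and 0.07 of the 23, and that of 0.04 of the insulin genes, changed sign under other scalings. Of 12 brakes on mTORC1, the kinase complex that drives growth, 2 were lower with ManGn than with water and 3 with fOS than with the mock extract (medians -0.22 and -0.58), against 7.37% and 6.41% of all genes. Lower in the mock library than with water was 1 (median 0.11), against 6.69% of all genes. Lower with ManGn than with the mock extract was 1 (median -0.32), against 3.47%. With fOS over water 4 were lower (median -0.42), against 14.3% of all genes. Ddit4, an mTORC1 inhibitor induced by stress and hypoxia, had FPKM 16.1 with water, 4.08 with the mock extract, 2.4 with ManGn and 0.11 with fOS. Deptor, which binds mTOR, had log2 ratios of -1.17 with ManGn over water and -1.46 with fOS over the mock extract. Sesn2, a sestrin that holds mTORC1 back when leucine is short, stood at FPKM 9.29 with water, 14.3 with the mock extract, 4.9 with ManGn and 1.95 with fOS, and its relative Sesn1, a p53 target, was at 20.3, 17.6, 11.7 and 9.96.

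The FOXO factors were highest with water and lowest with fOS, but the ligands differed less from the mock extract than the mock extract from water. Foxo3 had an FPKM of 22.2 with water, 9 with the mock extract, 8.29 with ManGn and 5.27 with fOS. Only the water library stood apart from the rest by more than 2-fold. The mock extract was 2.47-fold lower than water (interval 2.14 to 2.87), ManGn was 2.68-fold lower than water (2.30 to 3.12), and ManGn was 1.08-fold lower than the mock extract (0.903 to 1.30). Foxo1 had FPKM 5.19 with water, 2.32 with the mock extract, 3.2 with ManGn and 1.81 with fOS. ManGn lay below water, with a log2 ratio of -0.68, and above the mock extract, with 0.45, and neither reached 2-fold. In GENCODE M21 an antisense gene shares 7.78% of the exon bases of Foxo1. Foxo4 was at 6.51, 3.81, 3.46 and 2.91 in the same order of libraries, and Foxo6 was listed at 0. Of the 3 FOXO genes compared, Foxo1 and Foxo3 included, 1 was lower with ManGn than with water, against 7.37% of all genes. Foxo1 and Foxo3 were chosen with their values known, so nothing is read from the shares of this list. In the mock library 2 were lower than with water, against 6.69%. With fOS 3 were lower than with water (median -1.47), against 14.3%. With either ligand over the mock extract 0 were called (median -0.38 for fOS and -0.12 for ManGn). Of all genes, 6.41% were lower and 2.67% higher with fOS there, and 3.47% and 3.51% with ManGn.

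Of the 9 genes, Ccng2 was the one that set the ligands furthest apart. Cyclin G2 rises in cells that leave the cell cycle. Ccng2 had FPKM 62.3 with water, 18.9 with the mock extract, 19.3 with ManGn and 1.22 with fOS. The interval for ManGn over the mock extract included 1, with a fold of 1.02 (interval 0.906 to 1.16), and the fOS library was far below all others. The pool was 15.5-fold lower than the mock extract (11 to 22.3) and 51.2-fold lower than water (36.8 to 73.3). ManGn was 3.23-fold lower than water (2.93 to 3.57), and the mock extract was 3.31-fold lower than water (3 to 3.66). Of 14 genes compared among cyclin G relatives, CDK inhibitors and antiproliferative factors, Ccng2 included, 7 were lower and 0 higher with ManGn than with water, 5 lower and 0 higher with fOS than with the mock extract, and 7 lower and 0 higher for the mock library than for the water library. The median log2 ratios were -1.04, -0.64 and -1.02. Of all genes, 7.37%, 6.41% and 6.69% were lower and 9.44%, 2.67% and 9.24% higher in these comparisons. Ccng2 and the list were chosen with results of these data known, so nothing is read from this contrast. With ManGn over the mock extract 1 of the 14 was lower, against 3.47% of all genes, and the median was -0.00. With fOS over water 10 of the 14 were lower and 0 higher (median -2.10), against 14.3% of all genes lower and 1581 of the 11183 higher. Cdkn1b, which encodes the CDK inhibitor p27, stood at FPKM 50.2 with water, 17 with the mock extract, 17.6 with ManGn and 6.89 with fOS. Btg2, an antiproliferative factor induced by p53, was at 8.63, 4.32, 3.36 and 0.93. Btg3, of the same family, was at 2.53 with water and listed at 0 in the other libraries.

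Among 32 other FOXO targets that were compared, 8 were lower and 3 higher with ManGn than with water, and 12 were lower and 0 higher with fOS than with the mock extract. The medians were -0.57 and -0.72, and the shares of all genes were 7.37% lower and 9.44% higher in the former comparison and 6.41% lower and 2.67% higher in the latter. Between the controls 7 were lower and 4 higher with the mock extract (median -0.24), against 6.69% and 9.24% of all genes. ManGn over the mock extract gave 7 lower and 2 higher (median -0.11), against 3.47% and 3.51%. With fOS over water 18 were lower and 3 higher (median -1.05), against 14.3% of all genes lower and 1581 of the 11183 higher. Bbc3, which encodes the apoptosis inducer PUMA and is also a p53 target, had an FPKM of 42.2 with water, 26.5 with the mock extract, 4.88 with ManGn and 2.98 with fOS, so that both ligands were well below both controls. Bnip3, a mitophagy receptor that is also induced by hypoxia, was at 389 with water, 163 with the mock extract, 293 with ManGn and 20.4 with fOS, with the pool far below the other libraries. Il7r, the interleukin-7 receptor, went the other way, at 1.32 with water, 17.5 with the mock extract, 38.3 with ManGn and 33.3 with fOS. The list does not separate genes that FOXO factors switch on from genes that they hold down, so its counts do not measure FOXO activity. Many of these genes answer to other regulators too, and which of those regulators acted here was not tested. The lists overlap and are not separate groups, as Cdkn1b, Sesn1, Sesn2, Klf4 and Insr each stand here and in another list.

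Of the 9 genes, Klf2 alone was at least 2-fold higher with the disaccharide than with either control. It had FPKM 9.12 with water, 7.02 with the mock extract, 23.3 with ManGn and 4.54 with fOS. The ManGn library was the highest of the 4, above both controls, and the fOS library was the lowest. ManGn was 2.55-fold higher than water (interval 2.12 to 3.06) and 3.31-fold higher than the mock extract (2.71 to 4.07). The log2 ratio of fOS was -0.62 over the mock extract and -0.99 over water, just short of 2-fold. Of 11 KLF genes compared, Klf2 among them, 2 were lower and 1, Klf2 itself, higher with ManGn than with water (median -0.72). With fOS over the mock extract 6 were lower and 0 higher (median -1.08). Over all genes these shares were 7.37% and 9.44%, then 6.41% and 2.67%. Nothing is read from this contrast, since Klf2 and the list were chosen with results of these data known. ManGn over the mock extract gave 3 lower and 1 higher, again Klf2 (median -0.32), against 3.47% and 3.51%. The mock library over the water library gave 1 of each (median -0.37), against 6.69% and 9.24%. With fOS over water 6 were lower and 0 higher (median -1.34), against 14.3% of all genes lower and 1581 of the 11183 higher. Klf4, a factor of differentiation and macrophage activation, had FPKM 11.9 with water, 30.4 with the mock extract, 9.81 with ManGn and 4.65 with fOS. Klf7, a factor of neurons and fat cells, had a log2 ratio of -0.96 with ManGn over water and -1.87 with fOS over the mock extract, and Klf11, a TGF-β-induced repressor, of -1.93 and -1.08.

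Tsc22d3 stood at FPKM 24.1 with water, 17.5 with the mock extract, 9.03 with ManGn and 3.22 with fOS. Both ligands were below both controls, and the controls were within 2-fold of each other, with a log2 ratio of -0.46. The pool was 5.37-fold lower than the mock extract (interval 3.99 to 7.36) and 7.43-fold lower than water (5.56 to 10.1). ManGn was 2.67-fold lower than water (2.20 to 3.27) and 1.93-fold lower than the mock extract (1.57 to 2.39), a value just outside the threshold. Of 13 genes of the TSC22 family and the glucocorticoid response, Tsc22d3 among them, 2 were lower and 2 higher with ManGn than with water, and 2 lower and 0 higher with fOS than with the mock extract. The medians were -0.34 and -0.39, and the shares of all genes were 7.37% and 9.44%, then 6.41% and 2.67%. Since Tsc22d3 and the list were chosen with results of these data known, nothing is read from this contrast. ManGn over the mock extract gave 0 lower and 2 higher (median -0.07), against 3.47% and 3.51%. The mock library over the water library gave 1 of each (median -0.28), against 6.69% and 9.24%. With fOS over water 3 were lower and 0 higher (median -0.66), against 14.3% of all genes lower and 1581 of the 11183 higher. Per1, a clock gene that glucocorticoids induce, had an FPKM of 54.7 with water, 13.4 with the mock extract, 15.5 with ManGn and 7.34 with fOS. Mt2, a metallothionein induced by metals and glucocorticoids, was at 157, 232, 536 and 128, the highest with ManGn. Klf9, another glucocorticoid-induced gene, had log2 ratios of -0.73 with ManGn over water and -1.20 with fOS over the mock extract.

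In all, 6 of the 9 genes were lower with ManGn than with water, against 7.37% of all genes compared, and Klf2 was higher, against 9.44%. With fOS over the mock extract 5 were lower, against 6.41% of all genes. Between the controls, 6 were lower in the mock library, against 6.69%. ManGn over the mock extract left Txnip, Arrdc4 and Pik3ip1 lower, against 3.47%, and Klf2 higher, against 3.51%. Over water, 8 of the 9 were lower with fOS, against 14.3%. Since the genes were chosen with these values known, nothing is read from these shares. The corresponding medians of all genes lay between -0.024 and 0.074. The median log2 ratio of the 9 was -1.41 for ManGn over water, -0.13 for ManGn over the mock extract, -1.63 for fOS over the mock extract, -2.87 for fOS over water and -1.29 for the mock extract over water.

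**Figure D4:**
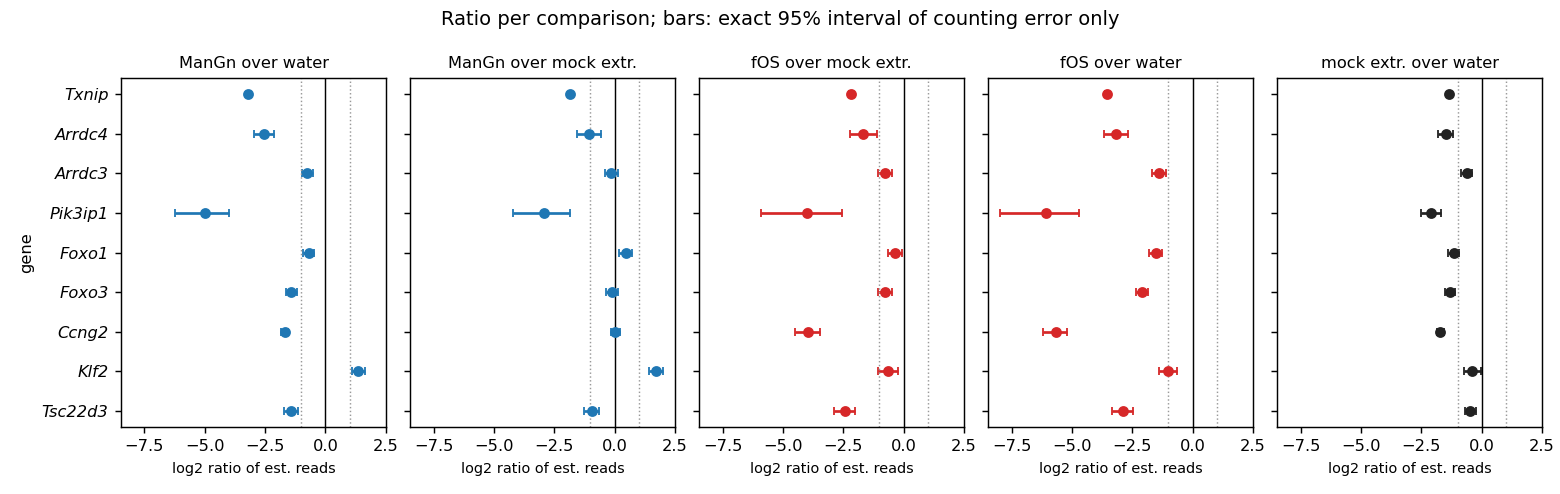
Log2 ratio of estimated reads of each of the 9 genes in 5 comparisons, with bars for the exact 95% interval of counting error only and dotted lines at 2-fold. The mock extract lies below water for all 9 genes, by log2 ratios of -0.37 to -2.04 on the scale of FPKM plus 0.1, with no ligand in either library.

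Txnip, Arrdc4 and Pik3ip1 were lower than both controls with ManGn, against 1.23% of all genes. With fOS, Ccng2 and Tsc22d3 joined these 3, against 4.37%. Lower than both controls with each of the ligands were again Txnip, Arrdc4 and Pik3ip1, against 0.760% of all genes. Klf2 was higher than both controls with ManGn, against 1.80%. By FPKM, water was the highest and fOS the lowest library for 8 of the 9, against 20.1% of all genes, and 6 of the 9 ran from water through the mock extract and ManGn down to fOS, against 11.0%. Not every step of that order was resolved. The interval of the ratio of ManGn over the mock extract included 1 for Arrdc3 (0.757 to 1.09) and Foxo3 (0.772 to 1.11). That of ManGn over fOS included 1 for Arrdc4 (0.992 to 2.4) and Pik3ip1 (0.564 to 9.55). Compared directly, the FPKM with ManGn was above that with fOS for each of the 9, with log2 ratios from 0.35 for Txnip to 3.88 for Ccng2. The direction was not resolved for Arrdc4, on about 54 reads against 37, nor for Pik3ip1, on 8 against 4. Ccng2, Klf2 and Tsc22d3 passed 2-fold there, against 6.33% of all genes.

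**Figure D5:**
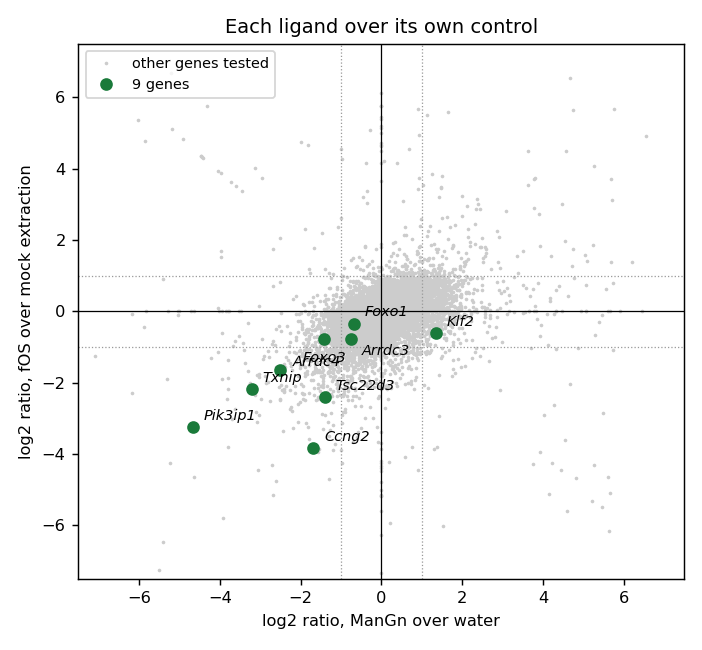
Log2 ratio of fOS over the mock extract against that of ManGn over water for the 11183 genes compared (grey) and the 9 genes (green), 2 comparisons that share no library. Txnip, Arrdc4, Pik3ip1, Tsc22d3 and Ccng2 lie below -1 on both axes, Klf2 lies to the right of 1, and Foxo1 and Arrdc3 lie within 2-fold on both.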

How the data were processed

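The deposited table holds FPKM values that the authors computed with RSEM, per the submitters' processing notes, for 17655 genes of 4 libraries, 1 per condition. Strand use, RSEM version, aligner, annotation and build were not given in the sources used here. A copy of the same FPKM in another column order was compared with it and not used. The authors' own ratios of each ligand over its control were not used either. The log2 ratio was that of FPKM plus 0.1, for genes that reached FPKM 1 in some library, and a call at 2-fold also needed FPKM 1 in either library of the pair. With 1 library per group no test was run.

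The 10 genes and the 12 gene lists were chosen with earlier results of these data known. The text names the 10 genes, of each list the 4 genes with the widest range over the libraries, the glucose-sensing and FOXO factors, Txn1, Slc2a1 and the 5 genes most like Txnip. Arrdc1, Arrdc5, Irs1, Akt1, Cd14, Itgam, Lck and Cd3d were named after their values were seen. Reads were estimated from FPKM, the shortest transcript length in GENCODE M21 and the estimated depth, and intervals are exact (Clopper-Pearson, 95%). Txnip, Arrdc4 and Tsc22d3 have several transcripts, so their reads are rougher. The ratio calls, the depth estimate and the motif search were tested on simulated data. Python 3.11.15, numpy 2.4.6, pandas 2.3.3 and scipy 1.17.1 were used. Alternatives were pseudocounts of 1 and 0.01, no filter or FPKM of at least 5, median centring, upper quartile and trimmed mean scaling, thresholds of 1.5-fold and 3-fold, and promoter windows of 250 bases.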

Additional observations from a re-analysis of the deposited data

Results flagged for a closer look

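Klf2 differed in opposite directions between the ligands and their own controls. Its log2 ratio was 1.34 with ManGn, against water, and -0.62 with fOS, against the mock extract. The latter is under 2-fold. The difference between the ligands was not tested, as each condition has 1 library.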

How the results depend on the processing

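No paired analysis was possible because each condition has 1 library, and for the same reason no library could be left out. No log2 ratio of the 9 genes that passed 2-fold changed its sign under any alternative. The call of Arrdc4 for ManGn over the mock extract was lost with a pseudocount of 1, median centring, upper quartile scaling and trimmed mean scaling, and that of Foxo1 between the controls with a pseudocount of 1. With FPKM of at least 5, Pik3ip1 was no longer counted for either ligand over the mock extract. Klf2 was called lower for fOS over water with a pseudocount of 0.01 and under the 3 scalings. At 1.5-fold, 8 of the 9 genes were lower with fOS than with the mock extract, against 14.7% of all genes, 8 lower than both controls, against 10.4%, and 7 higher with ManGn than with fOS, against 13.5%. At 3-fold, 0 of the 9 were higher with ManGn than with water, against 3.28%, and 2 lower in the mock library than in the water library, against 2.28%. Over all genes, the thresholds moved the counts most. The 824 genes lower with ManGn than with water became 278 at 3-fold and 1965 at 1.5-fold, the 388 lower with ManGn than with the mock extract became 132 and 1185, and the 717 lower with fOS than with the mock extract became 287 and 1644. Between the controls, 748 became 255 and 1671. Medians of the PI3 kinase list for ManGn over water (0.03), fOS over the mock extract (0.03) and between the controls (0.07), and that of the insulin list between the controls (0.04), took values between -0.04 and -0.01 under at least 1 scaling, and that of the PI3 kinase list with fOS over the mock extract became -0.15 with FPKM of at least 5. The estimated reads limit the low genes, of which Pik3ip1 with about 4 and 8 reads under the ligands is the least certain in size.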
